A study of Bos taurus with 18 samples.

Results

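The region described here holds 61 of the 31500 CpGs measured by reduced representation bisulfite sequencing (RRBS) in EBTr cells. It spans chr13:867385-886583 of bosTau8, a stretch of 19.2 kb around a cluster of 5 CpGs at chr13:870767-870806. The cluster was selected on the measured contrast High Control vs. Low Control, and the CpGs of it that the study lists were assigned to PLCB1 because the start site of that gene is the closest. The other CpGs were added by position alone, by joining neighbours no more than 10 kb apart. The largest gap that was joined is 8.65 kb, and the next measured CpG lies 363 kb beyond the last member, so the region would hold the same 61 CpGs with gaps of up to 20 kb and 14 CpGs with gaps of up to 5 kb. No measured CpG of chromosome 13 comes before it.

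EBTr is a fibroblast line grown from the trachea of a bovine embryo. Cells were kept in Low (1 g/L) or High (4.5 g/L) glucose, each with 3 levels (Control, ×2.5 and ×5) of epigenetic modifiers (EM), which are methionine, choline, folate and vitamin B12, nutrients that act as methyl donors or cofactors of methylation. This gave 6 treatments (Low Control, Low ×2.5, Low ×5, High Control, High ×2.5 and High ×5) with 3 libraries each, 18 in all. For methionine, the sample labels name the same multiples as for the other EM, whereas the methods of the study describe one lower multiple for both supplemented media. The labels do not say that the 3 cell pellets of a treatment came from separate cultures, so p-values measure only the spread between these pellets, which may be technical. RRBS reads methylation in CpG-rich fragments, where bisulfite converts unmethylated cytosines and leaves methylated ones. The deposited values are M-values, log2 ratios of methylated to unmethylated reads, and a methylation level in percent was computed from each. No read counts were used, so the depth behind each value was not determined.

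PLCB1 encodes phospholipase C beta 1, an enzyme switched on by Gq-coupled receptors. It splits a membrane phosphoinositide into inositol trisphosphate, which releases calcium, and diacylglycerol, which activates protein kinase C. Methylation of cytosines in CpG pairs is kept through cell division and tends to be high within genes and low at active promoters. In the study's tables, 7 of the 61 CpGs are listed, all of them for PLCB1, and 58 members lie at or between the listed ones. By the strand, distance and gene width given there, the listed CpGs lie downstream of the start site and within the gene. Whether they are exonic or intronic was not determined here, since no annotation of bosTau8 was used. In the RefSeq gene order of the assembly ARS-UCD2.0, used only for names, PLCB1 lies between TMX4 and PLCB4, the latter encoding another phospholipase C beta.

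Methylation changed sharply along the region, from mostly methylated CpGs to CpGs near 20%, and this profile was alike in all treatments. The 61 CpGs fall into 6 segments separated by more than 1 kb. The first, chr13:867385-867612, held 9 CpGs with mean levels over the 18 libraries of 26.9% to 85.5%. The cluster is the second segment, 40 bp long, and its 5 CpGs had mean levels of 69.1% to 89.5%. The third segment, chr13:879454-879692, was the one with the most CpGs, 16, at 25.1% to 83.4%. The fourth, chr13:883036-883122, held 8 CpGs at 46.3% to 92.5%, of which 7 were above 80%. In the fifth, chr13:884669-884871, 8 CpGs had levels of 39.4% to 91.0%. The sixth, chr13:886374-886583, held 15 CpGs and the widest range, 13.2% to 88.7%.

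The most methylated CpGs outside the cluster were CpG 883069 (92.5%), CpG 884871 (91.0%), CpG 883070 (90.9%), CpG 883036 (90.3%) and CpG 884669 (89.2%), named by position. The least methylated were CpG 886583 (13.2%), CpG 886560 (19.8%) and CpG 886571 (21.2%), all within the last segment. The first CpG of the region, CpG 867385, had a mean level of 83.4%. Over the 61 CpGs the median level was 73.0%, against 75.5% over all 31500. Of the members, 2 were below 20%, 36 between 20% and 80% and 23 above 80%, or 3.28%, 59.0% and 37.7%. The corresponding shares over all CpGs were 3.37%, 55.7% and 40.9%. The median SD between libraries of a treatment was 4.88 percentage points in the region and 4.06 over all CpGs.

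**Figure D1:**
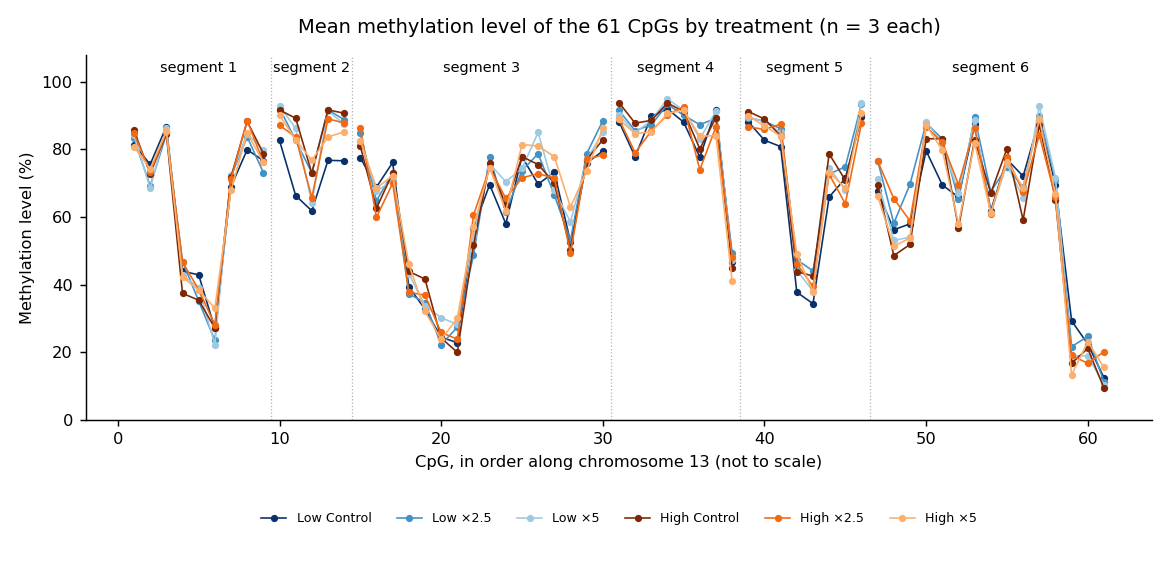
Mean methylation level (%, vertical axis) of each of the 61 CpGs in their order along chromosome 13 (horizontal axis, not to scale), with 1 line per treatment (n = 3 libraries each) and dotted lines between the 6 segments. The treatments follow the same profile, and Low Control lies below the others at the 5 CpGs of segment 2.

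Of the measured positions, 13 pairs are 1 base apart, as the cytosines on the opposite strands of a CpG are. The deposited positions carry no strand and no genome was read, so the members count at least 48 distinct sites. The level differed between the positions of a pair by a median of 5.93 percentage points in the region and 1.83 over the 6516 such pairs of the table. The widest gap was at CpG 879681 (54.5%) and CpG 879682 (76.6%), where the second was higher in 18 of 18 libraries, by 2.59 to 36.6 points. CpG 879626 (74.7%) was above CpG 879625 (54.9%) in 17 of 18 libraries. In the pair CpG 883069 and CpG 883070, the mean difference was only -1.59 points. Differences of over 20 points were found in 1 of the 13 pairs, 7.69%, and in 2.19% of all pairs.

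**Figure D2:**
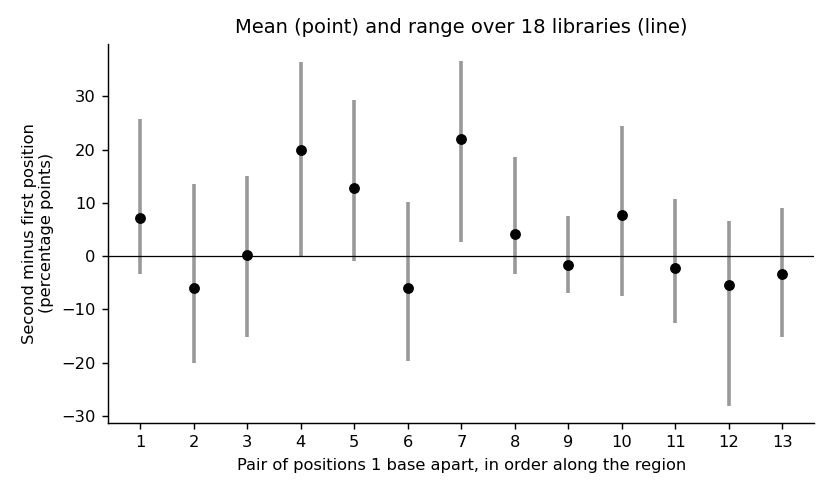
Difference in methylation level (percentage points, second minus first position) for the 13 pairs of positions 1 base apart, with the mean over 18 libraries as a point and the range as a line. The pairs with means of 19.9 and 22.1 points lie in the third segment, and the latter is the 1 pair of 13 whose range does not reach 0.

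The cluster was lowest in Low Control. These libraries chose the cluster, so the difference from High Control is a description and was not tested. CpG 870786 had levels of 71.9%, 62.5% and 64.7% in the 3 Low Control libraries and 87.2%, 87.9% and 92.7% in High Control. It had 81.8%, 86.2% and 80% in Low ×2.5, and 85.9%, 85.7% and 87.2% in Low ×5. The High libraries with EM gave 75.9%, 87.5% and 87.5% at ×2.5, and 86.4%, 81.0% and 81.1% at ×5. At this CpG all 15 other libraries were above the highest Low Control library. Here and below, the share of all CpGs that separate groups of libraries in this way was not determined. Nothing is read from such separations or overlaps.

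The other 4 CpGs of the cluster overlapped between Low Control and the remaining libraries. CpG 870799 had 84.4%, 81.3% and 64.7% in Low Control, and 13 of the 15 other libraries were above all 3 of them. CpG 870806 had 84.4%, 75.0% and 70.6%, with 11 of 15 above. At CpG 870767 the levels were 90.6%, 75.0% and 82.4%, and 9 of 15 were above. CpG 870791 was the least methylated of the cluster, with 64.5%, 56.3% and 64.7% in Low Control and a range of 50% to 86.5% elsewhere, and 12 of 15 were above.

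Averaged over the 5 CpGs, the level was 72.9% ± 5.46 (SD, n = 3 here and below) in Low Control, from 79.2%, 70.0% and 69.4%. It was 85.7% ± 1.00 in Low ×2.5, 84.4% ± 0.603 in Low ×5, 87.3% ± 1.15 in High Control, 82.7% ± 1.97 in High ×2.5 and 83.7% ± 4.07 in High ×5. Replicate 1 of Low Control stood apart from the other 2 and lay just above the lowest supplemented library, replicate 2 of High ×5, at 79.0%. Of the 15 other libraries, 14 were above all 3 of Low Control. Replicate 2 of Low Control had 75.0%, 62.5%, 56.25%, 81.25% and 75.0% at the 5 CpGs in order. Such coarse steps can come from few reads, and the part of depth in these levels was not tested.

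**Figure D3:**
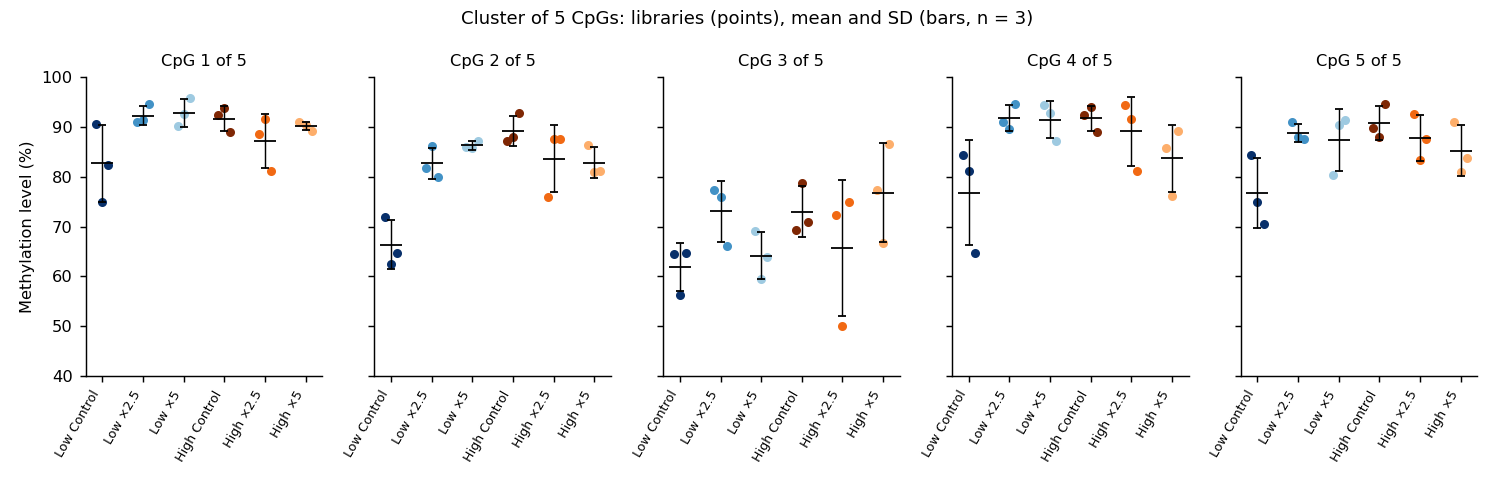
Methylation level (%, vertical axis from 40%) of the 5 CpGs of the cluster, in their order along the chromosome, with 1 point per library and the mean and SD of each treatment (n = 3). The groups do not overlap between Low Control and the rest at the second CpG, 870786, and overlap at the other 4. The Low Control libraries chose the cluster, and the share of all CpGs without overlap was not determined.

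Replicates 2 and 3 of Low Control also had low M-values over the whole table. The median M-value over all 31500 CpGs ranged from 1.42 to 1.74 between libraries and was 1.49 and 1.42 in these 2, against 1.68 in replicate 1. It was 1.47 in replicate 2 of High ×5. Other CpGs of the table with mean levels in the range of the cluster had 79.7% ± 1.91 in Low Control and 81.5% ± 0.544 in High Control, with treatment means of 80.1% to 82.0% in the supplemented media. Across the 18 libraries, the mean M-value of the cluster had a Pearson r of 0.72 (Spearman rho 0.44) with the library median and of 0.76 (rho 0.58) with the SD of all M-values of the library. Over the 12 supplemented libraries r was 0.77 (rho 0.51) and 0.73 (rho 0.53). These are descriptions, since both measures come from the same libraries. The part of the library-wide shift in the values of the cluster was not tested.

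**Figure D4:**
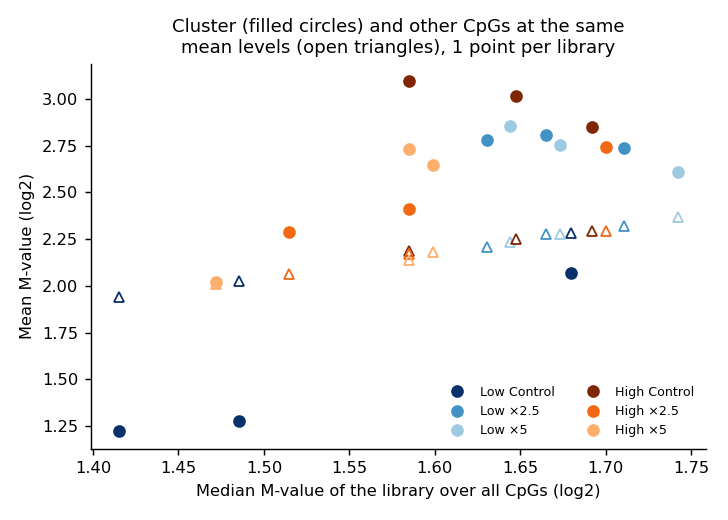
Mean M-value (log2) of the 5 cluster CpGs (filled circles) and of the other CpGs in the same range of mean levels (open triangles) against the median M-value (log2) of the library, 1 point of each kind per library. The 3 Low Control circles lie below their triangles, and replicates 2 and 3 of Low Control are also at the low end of the horizontal axis.

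The 12 supplemented libraries took no part in the choice of the region and ask whether glucose shifts the cluster when EM are added. At CpG 870786 the mean M-value was 2.35 in High and 2.46 in Low, a difference of -0.11 (High minus Low), with an exact two-sided permutation p = 0.685 over 400 arrangements within the EM levels. Within ×2.5 the difference was 0.15 (exact p = 0.8) and within ×5 it was -0.37 (exact p = 0.3), where the smallest p that 3 against 3 libraries allow is 0.1. The 95% interval of the averaged difference from limma was -0.60 to 0.38. Of the other cluster CpGs, CpG 870767 had -0.67 (SE 0.31), CpG 870799 -0.70 (SE 0.37), CpG 870806 -0.19 (SE 0.33) and CpG 870791 0.25 (SE 0.30), and none was called at an unadjusted p under 0.01 (limma). Adjusted p-values over all CpGs (limma, Benjamini-Hochberg) were 0.666, 0.739, 0.960 and 0.929 in that order. At ×5 alone, CpG 870791 was 0.97 higher in High (SE 0.43, limma, adjusted p = 0.730), and at ×2.5 its difference was -0.47 (SE 0.43). At ×5 the other cluster CpGs were lower in High, CpG 870799 by the most (-1.08, SE 0.53).

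Each treatment with EM was also set beside its own Control, which shares libraries with the contrast that chose the cluster, so the cluster differences carry no test. CpG 870786 was 1.67 higher in Low ×5 and 1.28 higher in Low ×2.5 than in Low Control on the log2 scale. CpG 870799 gave 1.71 and 1.72, CpG 870806 1.14 and 1.24, CpG 870767 1.42 and 1.25, and CpG 870791 0.14 and 0.76. In High the same 5 CpGs were mostly lower with EM than without. CpG 870786 differed by -0.82 in High ×5 and -0.67 in High ×2.5, and CpG 870791 by 0.37 and -0.46. High ×5 lay above Low Control at all 5 CpGs, by 0.63 to 1.30.

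The difference between the Control treatments is given by segment as a description, because the cluster was chosen on it. The median of High Control minus Low Control was 1.61 on the log2 scale in the cluster, where 5 of 5 CpGs were higher in High Control. It was -0.01 in the first segment, 0.06 in the third, 0.32 in the fourth, 0.41 in the fifth and -0.31 in the sixth, in which 5 of 15 were higher. By the threshold of the study, an unadjusted p under 0.01, 4 of the 61 CpGs were called in this contrast, 3 of them in the cluster, and 1.92% of all CpGs. Since the region was chosen on this contrast, nothing is read from that count or from the gap between the cluster and the other segments. In the supplemented libraries the High minus Low medians of the segments were -0.02, -0.19, -0.07, -0.35, -0.11 and -0.15 in order, against -0.07 over all CpGs.

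In High ×2.5 vs. Low ×2.5, 1 CpG of the region was methylated and 2 were demethylated. That is 3 of 61 CpGs, or 4.92%, called by limma at an unadjusted p under 0.01, against 1.01% of all CpGs. The methylated one was CpG 886583, the last and least methylated member. Its levels were 20%, 19% and 21.4% in High ×2.5 and 10.7%, 11.8% and 11.3% in Low ×2.5. In High ×5 they were 15.0%, 13% and 18.4%, and in Low ×5 9.38%, 8.70% and 13.2%. High Control had 9.26%, 11.5% and 7.27%, and Low Control 10.8%, 13.3% and 13.3%. The High ×2.5 libraries were above all 15 others, while High ×5 overlapped with Low ×5 and with Low Control.

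On the log2 scale CpG 886583 was 0.99 higher in High ×2.5 than in Low ×2.5 (SE 0.24, limma, adjusted p = 0.945). Other CpGs with mean levels of 10% to 20% had 16.2% ± 0.993 in High ×2.5 and 15.0% ± 0.920 in Low ×2.5, and 16.3% ± 1.21 in High ×5 and 14.5% ± 0.258 in Low ×5. Their part in the result was not tested. Nor was that of depth and of the offset in the M-values, which can shift levels this low.

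CpG 879692 and CpG 883076 were the demethylated CpGs. CpG 879692 had 78.8%, 86.8% and 69.4% in High ×2.5 and 91.4%, 84.5% and 89.5% in Low ×2.5, so that the groups overlapped. The difference was -1.06 (SE 0.32, limma, adjusted p = 0.945), and 0.15 (SE 0.32) at ×5. CpG 883076 had 83.3%, 63.6% and 75.0% in High ×2.5 and 86.5%, 84.1% and 91.4% in Low ×2.5, without overlap. The difference was -1.26 (SE 0.42, limma, adjusted p = 0.945), and 0.11 (SE 0.42) at ×5. Without replicate 3 of every treatment the differences were -0.63 at CpG 879692 and -0.98 at CpG 883076, and neither was called. Without replicate 1 the first was not called (-0.82), and without replicate 2 the second was not (-1.09). For CpG 886583 the call in this contrast was lost without replicate 1, where the difference was 0.96.

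**Figure D5:**
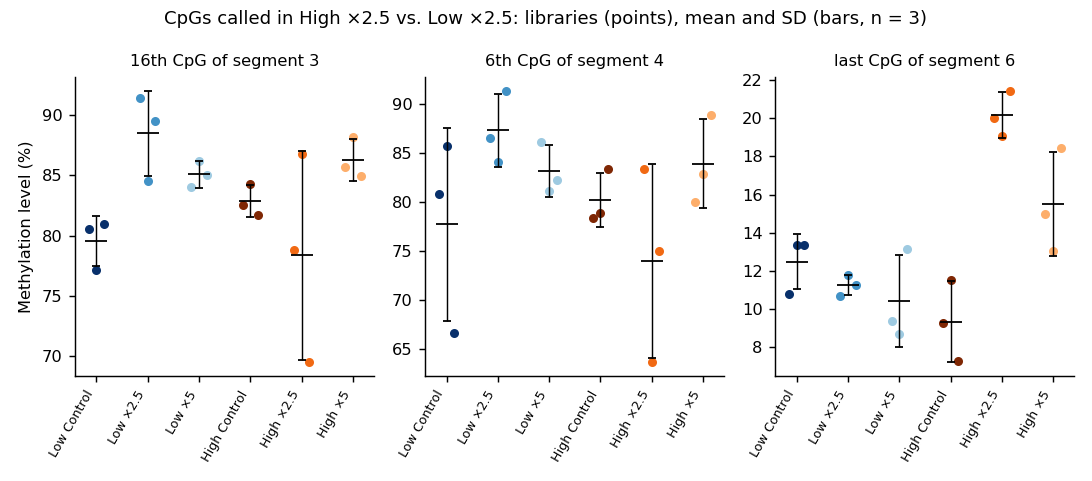
Methylation level (%, each panel with its own axis, none starting at 0) of the 3 CpGs called in High ×2.5 vs. Low ×2.5, from left to right CpG 879692, CpG 883076 and CpG 886583, with 1 point per library and the mean and SD of each treatment (n = 3). At CpG 886583 the High ×2.5 libraries lie between 19% and 21.4%, above every other library, and 1 library of High ×2.5 lies within the range of Low ×2.5 at CpG 879692.

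In High ×5 vs. Low ×5, 0 of 61 CpGs were called by limma, against 1.61% of all CpGs. At an unadjusted p under 0.05 there were 5 CpGs, and limma with trended and robust eBayes called 0. Here and below, no share over all CpGs is given at that threshold or under other settings, so nothing is read from those counts. Leaving out replicate 1 of every treatment gave 2 calls, and leaving out replicate 2 or replicate 3 gave 1. There were 3 calls when replicate 2 of High ×5 alone was left out, and 2 after centring of the libraries. The smallest p was that of CpG 883077, with 88.5%, 82.4% and 81.4% in High ×5 and 90.8%, 89.6% and 93.6% in Low ×5. These groups did not overlap, and the difference was -0.996 (SE 0.34, limma, adjusted p = 0.618). CpG 883077 was also 1.05 lower in High ×5 than in Low Control (log2 difference -1.05, SE 0.34, limma, adjusted p = 0.545), and was named after its values were seen. It is 1 base from CpG 883076, which was called at the other EM level. CpG 886583 was 0.67 higher in High ×5 (SE 0.24, limma, adjusted p = 0.632).

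Averaged over ×2.5 and ×5, High exceeded Low at CpG 886583 by 0.83 on the log2 scale (SE 0.17, limma, adjusted p = 0.274). It was the 1 CpG of 61 called for this effect, 1.64%, against 1.97% of all CpGs. The count was 5 without replicate 1 and 3 without replicate 2 of every treatment, 3 without replicate 2 of High ×5 alone, 4 in a fit of the 12 supplemented libraries and 3 with centred libraries. The share of 1.97% is that of the main fit and does not apply to these counts. At an unadjusted p under 0.05 there were 7 members, CpG 886583, CpG 867518 (0.58) and CpG 879678 (0.58) higher in High, and CpG 883069 (-0.82), CpG 884871 (-0.79), CpG 870767 (-0.67) and CpG 883077 (-0.67) lower, those outside the rule being listed after their values were seen. In all, 19 of 61 members were higher in High, and the median difference was -0.11 in the region and -0.07 over all CpGs. The F-test of the 4 supplemented treatments called 1 member, again CpG 886583 (limma, adjusted p = 0.740), with 1.16% of all CpGs called. It called 2 to 3 members when a replicate number was left out.

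The EM levels were compared within each glucose level. In High ×5 vs. High ×2.5, 0 of 61 CpGs were called by limma at an unadjusted p under 0.01, against 1.47% of all CpGs. That share would amount to under 1 of 61. At an unadjusted p under 0.05 there were 4, and trended and robust eBayes called 0. The share of 1.47% does not apply to these 2 counts. Without replicate 1, 2 or 3 of every treatment, 3, 2 and 1 members were called in turn. The lowest p was that of CpG 886402, with 47.8%, 50% and 56.4% in High ×5 and 59.6%, 68.0% and 68.8% in High ×2.5 (log2 difference -0.85, SE 0.30, limma, adjusted p = 0.696). In Low ×5 vs. Low ×2.5, 0 of 61 were called by limma at an unadjusted p under 0.01, against 0.371% of all CpGs. There were also 0 under 0.05 and 0 with trended and robust eBayes, to which that share does not apply. The smallest p there was that of CpG 886425.

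The 56 CpGs outside the cluster were compared with Control by the same limma fit. In High ×5 vs. High Control, CpG 886583 was called with a difference of 0.84 (SE 0.24, limma, adjusted p = 0.611), 1 of 56 against 1.37% of all CpGs, and 0 were called without replicate 3. In High ×2.5 vs. High Control, 2 of 56 were called against 1.02%. These were CpG 886583, higher by 1.31 (SE 0.24, limma, adjusted p = 0.693), and CpG 886402, higher by 1.01 (SE 0.30, limma, adjusted p = 0.949). CpG 886402 had 44.8%, 43.3% and 57.6% in High Control, all below the 3 High ×2.5 libraries. Without replicate 2 or replicate 3, 1 CpG was called in this contrast.

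Against Low Control, Low ×5 had 0 of 56 called by limma at an unadjusted p under 0.01, while 2.4% of all CpGs were called. At an unadjusted p under 0.05 there were 3, and trended and robust eBayes called 0, to which that share does not apply. Its smallest p was at CpG 884860, higher by 0.60 (SE 0.22, limma, adjusted p = 0.469). The levels were 76.1%, 75.2% and 72.5% in Low ×5 and 69.2%, 63.4% and 65.2% in Low Control, without overlap. Low ×2.5 had 1 of 56 called, against 2% of all CpGs. It was CpG 879692, higher by 1.02 (SE 0.32, limma, adjusted p = 0.465), with 80.6%, 77.1% and 81.0% in Low Control. With replicate 3 of every treatment left out, or with each library centred on its median, 0 of 56 were called in this contrast, and 2 were called without replicate 1 or replicate 2. With replicates 2 and 3 of Low Control left out the count was also 0, but then 1 Low Control library is left, which is assumed to vary like the other treatments. The median difference over all CpGs was 0.10 in both, and 0.20 over the 56 members.

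In High ×5 vs. Low Control, which changes glucose and EM together, 2 of 56 CpGs were called against 1.75%. They were CpG 883077, described with High ×5 vs. Low ×5, and CpG 886560. The latter had 23.8%, 8.33% and 7.69% in High ×5 and 23.7%, 26.7% and 37.5% in Low Control, so that replicate 1 of High ×5 overlapped with Low Control. The log2 difference was -1.61 (SE 0.51, limma, adjusted p = 0.521). Without replicate 2 or 3 of every treatment, 0 of the 56 were called, and 1 without replicate 1. The count was also 0 with replicate 1 as the lone Low Control library, again assumed to vary like the other treatments.

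Within a treatment, the median correlation between CpGs of the same segment was low. Between the 5 CpGs of the cluster, the median Pearson correlation of deviations from the treatment means was 0.05 over 10 pairs and 18 libraries, from -0.41 to 0.28. In the other segments the median was 0.01 to 0.18, and these CpGs share the depth of their library. Single pairs there ranged from -0.75 in the third segment to 0.80 in the sixth. The part of read depth in these correlations was not tested.

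Over the 18 libraries, the members outside the cluster whose M-values followed the mean M-value of the cluster most closely were CpG 884860 (Pearson r = 0.83), CpG 884680 (r = 0.72) and CpG 883055 (r = 0.62). The median r of the 56 was 0.17, against 0.13 for all CpGs outside the region. CpG 884860 had 74.4%, 83.6% and 78.1% in High Control, and its 3 Low Control libraries were the lowest of the 18. Elsewhere in the table the highest values were 0.91 for chr7:93156072, assigned to ARRDC3, 0.90 for chr8:56766081, assigned to TLE4, and 0.90 for chr9:20861029, assigned to BCKDHB. These likenesses rest on the same Low Control libraries and are given without a test.

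Other genes of G-protein, phospholipase C and phosphoinositide signalling were looked for in a list of 30 genes. CpGs were assigned to 9 of them, 639 CpGs in all, and to none of the other 21. A gene could receive CpGs only at or between those that the study lists for it as differentially methylated. The other 21, among them GNAQ, GNA11 and PLCB4, had no measured CpG listed, so whether CpGs near them were measured was not determined. Most of the 639 were those of GNAI1, a subunit of inhibitory G proteins, with 409, PIK3R4, a regulatory subunit of the class III phosphoinositide kinase, with 153, and RGS18, a regulator of G-protein signalling, with 31. Of the 639 CpGs, limma called 8 in High ×5 vs. Low ×5, 7 in High ×2.5 vs. Low ×2.5, 8 in High ×5 vs. High ×2.5 and 8 for the averaged glucose effect. These are 1.25%, 1.10%, 1.25% and 1.25%, beside 1.61%, 1.01%, 1.47% and 1.97% of all CpGs. In Low ×5 vs. Low ×2.5, 0 were called, beside 0.371% of all CpGs. The F-test of the 4 supplemented treatments called 6, or 0.939%, beside 1.16% of all CpGs. Since the study's lists come from these same libraries, the shares are a description and nothing is read from them.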

How the data were processed

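RRBS libraries of 18 EBTr cell pellets were analysed. Per the labels and the methods of the study, the authors trimmed the reads, mapped them to bosTau8 with Bismark (0.22.3 in the submitters' processing notes, which also name FastQC 0.11.8 and MultiQC 1.9), kept CpG cytosines and dropped those of low or extreme coverage. The deposited values are log2 M-values of 31500 CpGs. The offset added to both read numbers is not given in the sources used here. Levels were computed as the methylated share that the ratio implies, in percent. The offset still acts on them and draws them toward the middle of the scale, most where reads are few.

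The fit was made with limma (version 3.58.1, under R 4.3.3) to all 31500 CpGs and 18 libraries, 1 mean per treatment, two-sided, with a prior of 4.11 degrees of freedom. Calls were made at an unadjusted p under 0.01, the threshold of the study, and the Benjamini-Hochberg adjusted p over all CpGs is given beside it. Contrast 6 of the study was read as Low ×5 vs. Low ×2.5. In simulated data for High ×5 vs. Low ×5 with 31500 CpGs, true log2 changes of 1 were called in 58.0% of cases. Those of 2 were called in 96.5%, with 1.09% and 1.08% of unchanged CpGs called in turn. Whether these rates hold for the CpGs of the region, or where whole libraries are shifted, was not tested.

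CpGs took gene names from the closest start sites in the study's supplementary tables, and unlisted CpGs lying between listed ones took the same gene. The tables' fold changes and p-values were not used. Named CpGs are the cluster, members called without Control libraries, the smallest p in each contrast with Control, the extremes of level and position, and the CpGs most like the cluster. The members and lists were chosen with earlier results of these data known. Levels and permutation tests were computed in Python 3.11.15 (scipy 1.17.1, pandas 2.3.3, numpy 2.4.6) and drawn with matplotlib 3.10.9. The alternatives were trended and robust eBayes, fits of a contrast's own libraries, a replicate block, leaving out replicates, centring, quantile normalization, levels as fractions, a filter at mean levels of 10% to 90%, the adjusted p and gaps of 5 or 20 kb.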

Additional observations from a re-analysis of the deposited data

How the results depend on the processing

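Counts here are members called. Shares of all CpGs under the same settings are not given, so a changed count is not read as a trait of the region. With gaps of up to 5 kb, or with an adjusted p under 0.05 as the threshold, every count was 0. Fitting only the libraries of a contrast gave 1 in High ×5 vs. Low ×5, 1 in High ×2.5 vs. Low ×2.5, 1 in Low ×5 vs. Low ×2.5, 4 for the averaged glucose effect, 0 in Low ×2.5 vs. Low Control and 1 in High ×5 vs. Low Control. Centring gave 2 in High ×5 vs. Low ×5, 1 in High ×5 vs. High ×2.5, 3 for the glucose effect and 0 in Low ×2.5 vs. Low Control. Quantile normalization gave 1 in High ×5 vs. High ×2.5 and 0 in Low ×2.5 vs. Low Control. It turned High minus Low at CpG 870786 to 0.0387 from -0.11 on the log2 scale (exact permutation p = 0.885), and the cause was not tested. Levels as fractions gave 1 in High ×5 vs. Low ×5, 2 for the glucose effect, 1 in Low ×5 vs. Low Control and 0 in Low ×2.5 vs. Low Control.

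Leaving out each replicate number gave 1 to 2 in High ×5 vs. Low ×5 (3 without High ×5 replicate 2, chosen after seeing the data), 1 to 3 in High ×2.5 vs. Low ×2.5, 1 to 3 in High ×5 vs. High ×2.5 and 0 to 1 in Low ×5 vs. Low ×2.5. It gave 1 to 5 for the glucose effect (3 without High ×5 replicate 2), 2 to 3 for the F-test, 0 to 2 in High ×5 vs. High Control, 1 to 2 in High ×2.5 vs. High Control, 0 to 1 in Low ×5 vs. Low Control, 0 to 2 in Low ×2.5 vs. Low Control and 0 to 1 in High ×5 vs. Low Control. At CpG 870786 High minus Low ranged from -0.20 to -0.05. CpG 886583 kept its call for the glucose effect in 10 of 10 alternatives on the M-value scale (limma, adjusted p of 0.270 to 0.855) and in High ×2.5 vs. Low ×2.5 in 8 of 9. CpG 879692 kept its call in 6 of 9 and CpG 883076 in 4 of 9.

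A replicate block gave 1 call in High ×5 vs. High ×2.5 and 2 for the glucose effect, with every other count within 1.5 times, and an exact p = 0.656 for CpG 870786. Libraries with the same number did not deviate together (correlations of -0.11 to 0.12 over all CpGs, above 0.1 in 1 of 45 pairs). Those with different numbers had -0.10 to 0.10 in 90 pairs. No pairing by number was seen, but these correlations cannot tell whether a number stands for a shared culture or preparation. Low M-values in 3 libraries, the undetermined depth and 3 libraries a treatment limit these values.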
